A study of Cucumis sativus with 6 samples.

Results

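The 369 transcripts described here were unannotated transcripts of pollinated cucumber ovaries that gave many reads. They carry an identifier such as Novel00585 in place of a gene model of the reference annotation, and they were chosen by their measured level, as those whose *Csalc* and WT group means averaged at least 100 normalized counts (reads corrected by a size factor for the depth of the library). The table held 707 unannotated transcripts among 23955 genes, so 52.2% of the unannotated transcripts were members. RNA was sequenced from 3 *Csalc* libraries and 3 WT libraries made from the ovary and its stigma, all taken at 32 h after pollination. The paper describes a representative sequenced sample as the top part of the ovary, so the lowest part may not have been sampled. *Csalc* plants are homozygous knockouts of *CsALC* made with CRISPR-Cas9 in the cucumber inbred line XTMC, and WT is the same line unedited. The study obtained several *Csalc* lines, and the sources used here do not say whether the *Csalc* libraries came from 1 line or more. All 6 libraries came from pollinated ovaries, and no other treatment is given. The paper does not name the pollen donor for the sequenced ovaries, so it may differ between the groups.

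An unannotated transcript is one that reads give although the annotation holds no gene model for it. Such transcripts can be protein-coding genes that an annotation missed, long non-coding RNAs, transcribed transposons, antisense RNAs or unlinked pieces of a neighbouring gene. *CsALC*, the gene disrupted in the mutant, encodes a basic helix-loop-helix transcription factor related to *ALCATRAZ* of *Arabidopsis*, where that gene acts in the separation layer of the fruit. The deposited table gives identifiers only, with no sequence, position, length or strand, so none of the 369 transcripts can be assigned to any of these kinds here, and the RefSeq table for cucumber at hand (23999 genes) uses other identifiers, matching 0 of the 23955 in the table, reference genes included. For the same reason no role is given for any of them. A transcript that overlaps a reference gene, or its antisense strand, could share reads with it.

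Each group was deposited as a mean. Because a group mean is a sum of whole reads, each divided by 3 and by its library's size factor, the reads of the single libraries could be worked out where only 1 combination of whole reads gave the printed mean. The libraries recovered in this way carry no replicate number and are called a, b and c in order of falling size factor, which is 1.07 for each of the *Csalc* libraries and 1.06, 1.01 and 0.782 for WT libraries a, b and c. The library values of WT were single for 274 members, all those with a WT mean under 1000. Those of *Csalc* were single for 67 members, nearly all with a *Csalc* mean under 200, because 2 of the 3 *Csalc* size factors are almost equal and higher means can be split in several ways. *CsALC* itself (Csa2G356640) had a *Csalc* mean of 238 and a WT mean of 395, with 437, 371 and 376 in the WT libraries. Its reads in the mutant do not test the edit, since a frameshift need not remove the transcript. The pollen tube and transmitting tract genes *CsRALF19* (Csa6G484570) and *CsRALF4* (Csa6G199790) had means of 55.3 and 0.932 in *Csalc* and of 608 and 8.31 in WT.

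The members covered a wide range of levels, but as a set lay below the reference genes, those whose identifier begins with Csa. The overall mean, the average of both group means, ran from 101 to 29700 normalized counts with a median of 454 in the members, against a median of 787 in the 14661 reference genes from 100 upward. Of the members, 90 lay between 100 and 200 (24.4%, against 11.5% of those reference genes) and 16 at 5000 or above (4.34%, against 5.60%). Lengths are not known, so these counts are read yields and do not rank the transcripts by abundance. The median over all 707 unannotated transcripts was 110, against 304 over all 23248 reference genes, while 2.40% of the unannotated transcripts and 9.73% of the reference genes were at 0 in both groups.

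**Figure D1:**
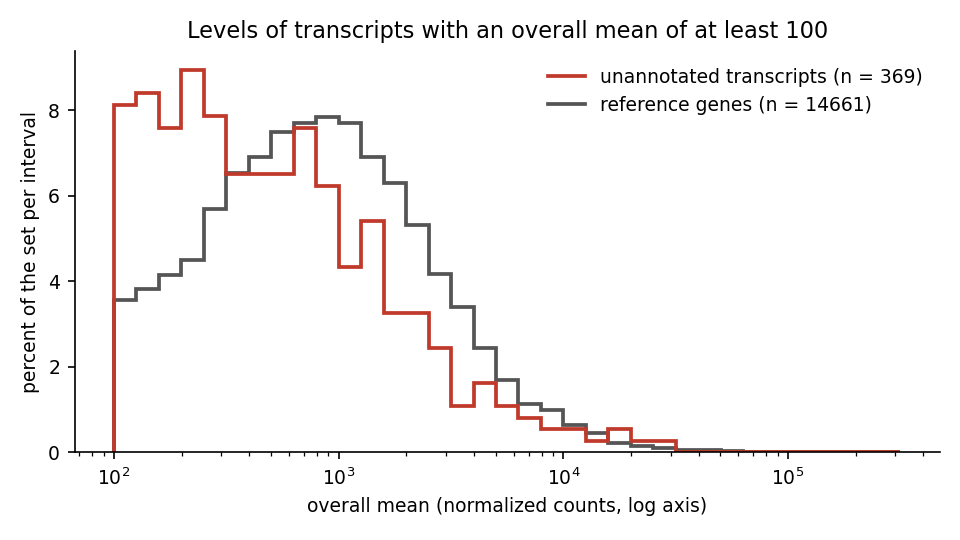
Percent of each set per interval of the overall mean (normalized counts, log axis), for the 369 unannotated transcripts and the 14661 reference genes from 100 upward. The unannotated transcripts are most frequent at the low end, and the reference genes around 1000.

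A few transcripts held a large part of these reads. The 369 members took 1.83% of all normalized counts in *Csalc* and 1.78% in WT, and the 338 unannotated transcripts under 100 took 0.0492% and 0.0451% of those of *Csalc* and WT. The 10 members with the highest level gave 33.2% of the members' normalized counts in both groups, and the single highest, Novel00585, gave 6.63% in *Csalc* and 6.66% in WT. Novel00585 averaged 29507 in *Csalc* and 29894 in WT and ranked 33 among all genes of the table. Novel00040 followed with 21403 in *Csalc* and 21038 in WT, and Novel00054 with 18548 in *Csalc* and 18835 in WT. The group means of these 3 transcripts lay within 1.1-fold of each other.

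The next 7 by level were Novel00303, Novel00118, Novel00089, Novel00610, Novel00007, Novel00277 and Novel00286, with overall means from 16714 down to 7628. In 6 of these 7 the *Csalc* mean was lower than the WT mean, by a log2 ratio (*Csalc* over WT) between -0.13 and -0.01. The exception was Novel00277, whose *Csalc* mean of 9538 and WT mean of 7304 gave a log2 ratio of 0.39. It was the only one of the 16 members from 5000 upward to leave the central 95% of reference genes of that level, which ran from -0.44 to 0.34. These means are too high for the reads of single libraries to be worked out, so they have no error.

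Across the set the *Csalc* and WT means lay close together. The minimum of the rule was placed on the average of both groups, so the ratio between them was not chosen directly, but the same values enter both and the ratios are given as a description with no test. Since the RNA came from bulk tissue, fewer cells that hold a transcript and less of it per cell cannot be told apart. The median log2 ratio was 0.02, with quartiles of -0.09 and 0.14, against a median of -0.01 and quartiles of -0.13 and 0.10 in the reference genes from 100 upward. The *Csalc* mean was within 1.1-fold of the WT mean in 201 of the 369 members (54.5%), against 57.6% of those reference genes. It was the higher one in 205 members and the lower one in 164, a share of 55.6% higher, against 46.4% in the reference genes.

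The direction moved with the level in both sets. Between 100 and 200 the median log2 ratio was 0.08 in 90 members, against 0.04 in the reference genes, and between 200 and 500 it was 0.04 in 108 members, against 0.02. Between 500 and 1000 it was 0.05 in 76 members, against -0.00 in the reference genes. From 1000 to 5000 it was -0.05 in 79 members, against -0.04, and from 5000 upward -0.02 in 16 members, against -0.10 in the reference genes. The *Csalc* mean was thus the higher one in 65.6% of the members between 100 and 200 and in 31.6% of those from 1000 to 5000, where the reference genes gave 56.7% and 38.9%.

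Below 5000 the middle of the distribution was about as wide as in reference genes of the same level. The interquartile range of the log2 ratio was 0.26 in members between 100 and 200, against 0.32 in reference genes, 0.20 against 0.24 between 200 and 500, and 0.22 against 0.21 between 500 and 1000. It was 0.18 against 0.21 from 1000 to 5000. From 5000 upward, with 16 members, it was 0.10 against 0.23. Outside the central 95% of the reference genes of the same level lay 27 members (7.32%), 16 above and 11 below, beside 5.03% of the reference genes themselves. The share of the reference genes is fixed by how the limits were drawn. By level the share of members was 4.44% between 100 and 200 (5.08% of the reference genes), 8.33% between 200 and 500, 7.89% between 500 and 1000, 8.86% from 1000 to 5000 and 6.25% above.

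**Figure D2:**
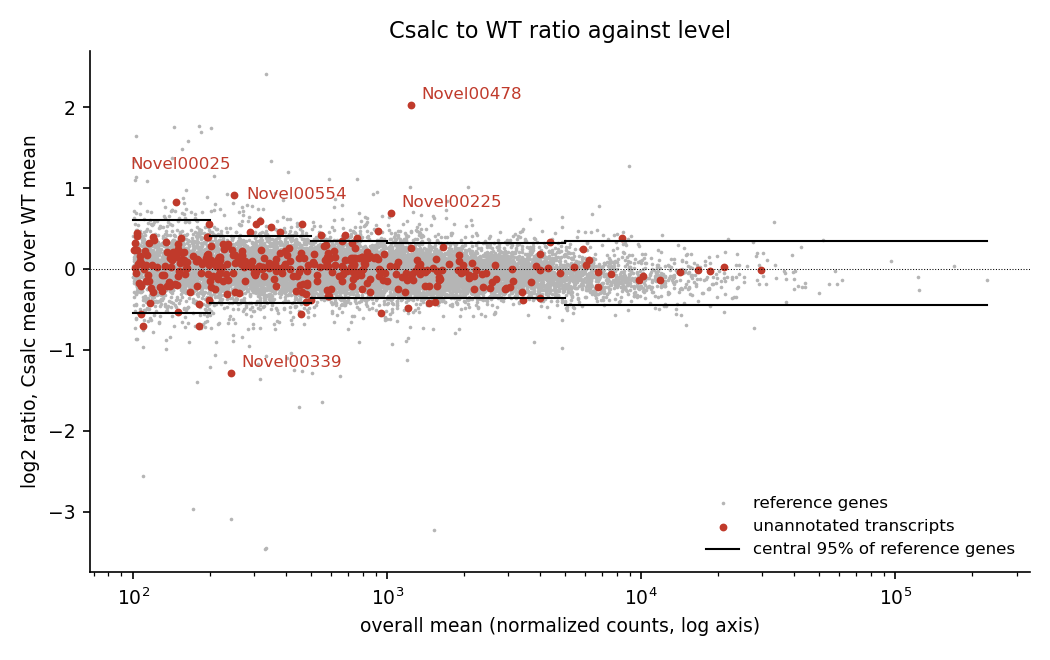
Log2 ratio of the group means, Csalc over WT, against the overall mean (normalized counts, log axis). Red points are the 369 unannotated transcripts, grey points the 14661 reference genes, and black lines the central 95% of reference genes per level. Novel00478 lies at 2.02 and Novel00339 at -1.29, and 27 unannotated transcripts lie outside the lines.

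A 2-fold difference between group means was rare. It was reached upward by 1 member, Novel00478, where 0.146% of all 15030 genes from 100 upward reached it, and downward by 1 member, Novel00339, where 0.153% did. At 1.5-fold, 5 members were higher in *Csalc* (1.36%, against 0.757% of the reference genes) and 3 were lower (0.813%, against 0.709%). With counts this small the shares rest on single transcripts.

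Novel00478 had the highest ratio of all members and also the widest spread between WT libraries. Its mean was 1994 in *Csalc*, against WT libraries of 994, 81.0 and 397 with a mean of 490 ± 464 (SD, n = 3). The WT library with the most reads thus had more than 10 times those of the library with the fewest, and the log2 ratio of the means, 2.02, is set against a WT coefficient of variation (CV, the SD as a percent of the mean) of 94.5%. The *Csalc* mean can be reached by 62 combinations of whole reads, and every *Csalc* library lies above every WT library in 22 of them. Whether the groups overlap is therefore not known for this transcript. It was 1 of 274 members in which the lowest WT library had less than 1 in 5 of the highest (0.365%), against 7 of 8512 reference genes from 100 upward (0.0822%).

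Novel00339 had the lowest ratio and the opposite arrangement, with even WT libraries and uneven *Csalc* libraries. The *Csalc* libraries had 328, 96.0 and 0 normalized counts, a mean of 141 ± 169 (SD, n = 3), against 377, 321 and 338 in WT, a mean of 345 ± 28.7 (SD, n = 3). One of the *Csalc* libraries lay at the WT level, above the lowest WT library, and another held no read at all, which allows up to 2.81 normalized counts (3 reads, counting error only). The groups overlapped, and the log2 fold change of -1.29 ± 0.77 (SE) had an adjusted p of 0.868 in edgeR's quasi-likelihood test. Without *Csalc* library c, the one at 0, the fold change was -0.70, and without *Csalc* library a, the one at the WT level, it was -2.84, so the size of the difference is set by single libraries. Novel00339 was the only 1 of 67 members with recovered *Csalc* reads that had a library at 0, and none of the 1174 reference genes recovered from 100 upward had one. Means with several possible splits are not in these counts, and a possible split of Novel00025 also has a *Csalc* library at 0.

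**Figure D3:**
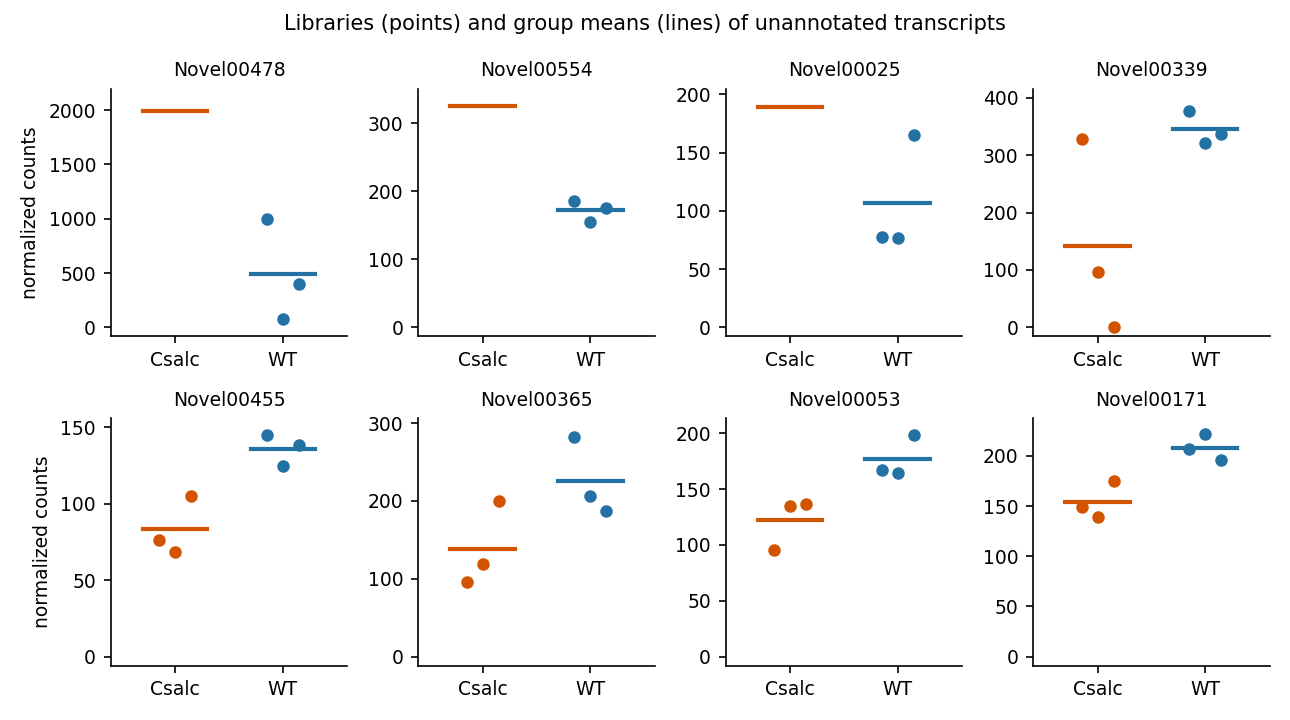
Normalized counts of 8 unannotated transcripts, Csalc left and WT right. Points are single libraries and lines group means; Csalc libraries of Novel00478, Novel00554 and Novel00025 have no single solution and only the mean is drawn. Novel00339 has Csalc libraries from 0 to 328, and the Csalc libraries of Novel00455, Novel00053 and Novel00171 all lie below the WT libraries.

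Below Novel00478, the highest ratios belonged to transcripts of moderate level. Novel00554 had a *Csalc* mean of 325, against 186, 155 and 175 in the WT libraries, a log2 ratio of 0.92. Of the 3 ways in which its *Csalc* reads can be split, 2 put every *Csalc* library above every WT library (1 of these by little, 187 against 186), and the third has its lowest *Csalc* library at 170, within the WT range. Novel00025 had a *Csalc* mean of 189, against 77.5, 77.0 and 165 in WT libraries, which is a log2 ratio of 0.83. Its *Csalc* libraries were either 54.0, 334 and 180 or 70.8, 497 and 0, and in both cases 1 *Csalc* library lay far above all WT libraries and at least 1 below them all. The groups overlap under either split.

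Novel00225 stood out by the small spread in WT. It had a *Csalc* mean of 1283, against 815, 774 and 791 in the WT libraries (CV 2.61%), a log2 ratio of 0.69. Its *Csalc* mean can be split in 53 ways, of which 13 put all *Csalc* libraries above all WT libraries. The other 6 of the 10 highest ratios, Novel00070, Novel00498, Novel00517, Novel00565, Novel00495 and Novel00420, had log2 ratios from 0.47 to 0.59. Among these, Novel00517 was unusually even in WT, with 371, 377 and 374 in the libraries (CV 0.800%) against a *Csalc* mean of 548. Each of the 3 possible splits of its *Csalc* reads has a library no higher than the highest in WT, so that its groups overlap.

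Among the lowest ratios, several transcripts had recovered libraries in both groups. Novel00455 had 76.4, 68.1 and 105 in *Csalc*, against 145, 124 and 138 in WT. All *Csalc* libraries lay below all WT libraries, and its log2 fold change of -0.71 ± 0.23 (SE) gave the lowest p of any member tested, with an adjusted p of 0.451 (edgeR). An exact permutation test of its 3 against 3 libraries gave a two-sided p of 0.1, the smallest that 3 against 3 allow.

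Novel00053 had 95.9, 135 and 137 in *Csalc*, against 167, 165 and 198 in WT. Novel00171 had 149, 139 and 175 in *Csalc*, against 207, 222 and 196 in WT. In both, the groups did not overlap, and the log2 fold changes were -0.52 ± 0.22 and -0.43 ± 0.21 (SE), with adjusted p of 0.716 and 0.789 (edgeR). Novel00365 had 95.9, 118 and 200 in *Csalc*, against 282, 206 and 187 in WT, and Novel00302 had 112, 69.0 and 79.7 in *Csalc*, against 165, 146 and 72.9 in WT. Both overlapped, the first through its highest *Csalc* library and the other through its lowest WT library. The remaining 4 of the 10 lowest ratios, Novel00667, Novel00528, Novel00132 and Novel00497, had higher means, with log2 ratios from -0.56 to -0.42 and no single solution for the *Csalc* reads.

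The test across libraries called none of the members. Of 6790 genes with recovered reads in both groups and an overall mean of at least 1, 67 were members. At an adjusted p under 0.05, edgeR's quasi-likelihood test called 0 of these 67, with 3 at an unadjusted p under 0.05 (4.48%). Of the 1174 reference genes tested from 100 upward, edgeR called 7, with 5.37% at an unadjusted p under 0.05. DESeq2 also called 0 of the 67, with 3 at an unadjusted p under 0.05, beside 303 of all 6790 genes. Over all 6790 genes, edgeR called 4 higher in *Csalc* (0.0589%) and 19 lower (0.28%). The members tested were those whose *Csalc* mean can be split in 1 way, and the other members are without this test. A low mean favours this but does not ensure it, since 61 of 81 *Csalc* means of members between 100 and 200 had 1 split. Having 1 split also depends on the *Csalc* libraries themselves, so the 67 are a selected part of the members. With the most even split of each *Csalc* mean, edgeR could test 270 members. Of these, 0 were called and 20 (7.41%) had an unadjusted p under 0.05. Of 8320 reference genes from 100 upward tested in this way, 11 were called and 6.25% had an unadjusted p under 0.05. With the least even split 0 of 270 members were called, with 0 at an unadjusted p under 0.05. The median SE of the log2 fold change was 0.23 in the 67 members and 0.23 in the 1174 reference genes tested from 100 upward.

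Complete separation of the libraries was also no more than a small share. Every *Csalc* library lay above every WT library in 3 of the 67 members (4.48%), and below in 6 (8.96%). In the 1174 reference genes tested from 100 upward these shares were 4.26% and 5.03%, and in all genes tested 5.45% and 5.73%. The 6 lower ones were Novel00455, Novel00053 and Novel00171, described above, and Novel00156, Novel00378 and Novel00641. The 3 higher ones were Novel00216, Novel00125 and Novel00181. Novel00156, Novel00641, Novel00125 and Novel00216 were singled out after their values had been seen. Novel00216 had the largest difference of the 3, with 111, 136 and 110 in *Csalc*, against 105, 81.9 and 75.5 in WT, and had an adjusted p of 0.809 (edgeR). Counting all possible splits of the *Csalc* reads of the 274 members with WT libraries, 14 further members were higher under some splits and 6 lower under some, while 245 overlapped under all of them. Reference genes were not counted in this way, so these numbers have no share to stand beside.

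For the members with WT libraries, the *Csalc* mean can be set against the range of those libraries whether or not its own reads were recovered. Of 272 members with an overall mean from 100 to 1000, the *Csalc* mean lay above the highest WT library in 72 (26.5%) and below the lowest in 39 (14.3%). In 8406 reference genes of the same levels these shares were 25.4% and 18.5%. A *Csalc* mean outside the WT range was thus found in 40.8% of the members and in 43.9% of the reference genes. At the other end stood members whose means hardly differed. Novel00047 had 104, 98.8 and 128 in *Csalc*, against 123, 91.8 and 116 in WT (log2 ratio 0.00), and Novel00204, Novel00648, Novel00468 and Novel00086 had log2 ratios between -0.00 and 0.00 at overall means from 322 to 3095.

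The spread between WT libraries was not used to choose the members. It was wider in them than in reference genes at overall means from 200 to 1000, and alike between 100 and 200. Levels from 1000 upward were not compared, because few WT library values of members were known there. Over the 272 members the median CV of the WT libraries was 12.9% (quartiles 7.57% and 19.5%), against 10.4% (6.49% and 15.4%) in the 8406 reference genes. The part that counting alone gives was 6.21% in the members and 5.16% in the reference genes, and the members hold more low means. Between 100 and 200 the median CV was 14.7% in members and 14.6% in reference genes. Between 200 and 500 it was 13.8% against 10.8%, and between 500 and 1000 it was 9.73% against 8.53%. Genes are not independent replicates, and no test was made of these differences.

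**Figure D4:**
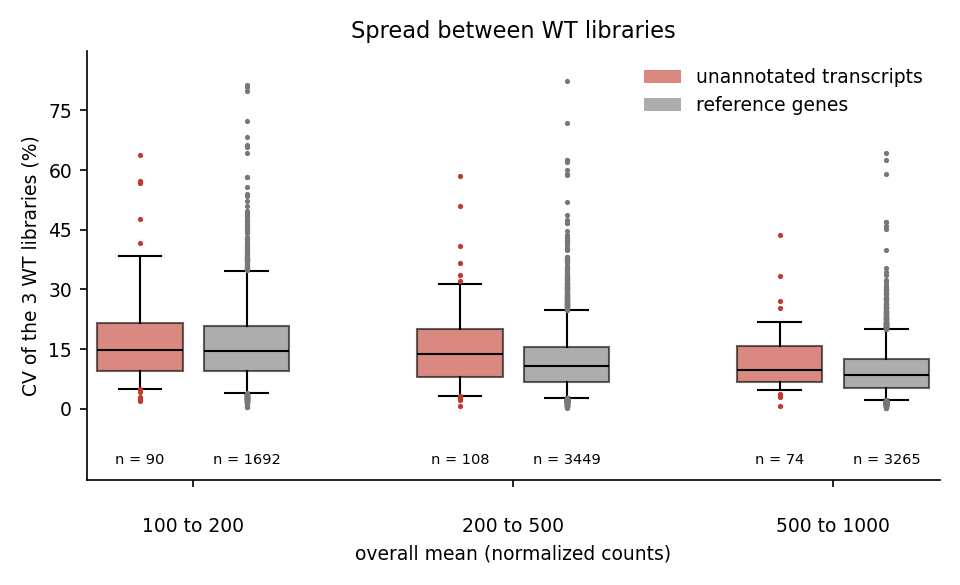
CV of the 3 WT libraries (%) per level (overall mean in normalized counts) for unannotated transcripts (red) and reference genes (grey). Boxes give the quartiles, black lines the medians and whiskers the 5th and 95th percentiles. The medians are 14.7% and 14.6% between 100 and 200, 13.8% and 10.8% between 200 and 500, and 9.73% and 8.53% between 500 and 1000.

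In WT the upper tail differed more than the median. A CV over 30%, a limit chosen after the data had been seen, was found in 21 of the 272 members (7.72%), against 255 of the 8406 reference genes (3.03%). By level these shares were 12.2% against 8.51% between 100 and 200, 7.41% against 2.70% between 200 and 500, and 2.70% against 0.551% between 500 and 1000. Besides Novel00478, whose overall mean lies above 1000, the most uneven transcripts were Novel00249, Novel00338, Novel00565 and Novel00404. Novel00249 had 250, 73.1 and 114 in the WT libraries (CV 63.7%), Novel00338 had 369, 92.8 and 248 (58.5%), and Novel00565 had 265, 91.8 and 125 (57.2%). All 3 were highest in WT library a and lowest in WT library b. Novel00404, with 145, 324 and 120 (56.7%), was instead highest in WT library b. In *Csalc* the upper tail went the other way. A *Csalc* CV over 30% was found in 8 of the 67 members with recovered reads (11.9%), against 204 of 1174 reference genes (17.4%). The median *Csalc* CV was 19.3% in members and 18.0% in reference genes. Both *Csalc* sets hold only means with 1 split, which selects on the libraries themselves, so they do not decide whether members are more uneven in *Csalc*.

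The most even members were spread over the same levels. Novel00464 had a *Csalc* mean of 624, against 538, 546 and 542 in the WT libraries (CV 0.699%), and Novel00517, given above, followed with a CV of 0.800%. Novel00378, Novel00461 and Novel00206 had CVs of 1.94%, 2.20% and 2.38% at WT means of 141, 374 and 484. All 5 CVs are below what counting alone gives at these means.

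WT library a was the highest of the WT libraries for more members than reference genes. It was highest in 153 of the 272 members (56.3%), against 42.4% of the 8406 reference genes, while WT library b was highest in 19.1% against 27.0% and WT library c in 24.6% against 30.6%. The median log2 deviation of library a from the mean of the 3 was 0.09 in members and 0.03 in reference genes. Of the 21 members with a CV over 30%, 18 (85.7%) were highest in library a, where 38.4% of the 255 reference genes past that limit were. Under TMM scaling, which divides WT library a by a further factor of 1.04, the shares fell to 40.8% of the members and 25.4% of the reference genes, and the median deviation was 0.02 in members and -0.04 in reference genes. The members were thus above the reference genes in this library under both scalings, whereas the sign in the reference genes turned.

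*Csalc* library a held the same place among the *Csalc* libraries. It was highest in 43 of the 67 members with recovered *Csalc* reads (64.2%), against 42.8% of the 1174 reference genes, and under TMM scaling in 59.7% against 37.8%. Both sets hold only means with 1 split, which selects on the libraries themselves. Possible splits of a mean differ little in library a. Those of Novel00025 have 58 or 76 reads in a, 358 or 533 in b and 192 or 0 in c. A mean from 100 upward thus tends to have 1 split when b and c are low, which raises these shares for library a. The unannotated transcripts under the minimum, which the rule left out, gave a further set of the same kind. In 266 of them with overall means from 10 to 100, *Csalc* library a was highest in 49.6%, against 33.9% of 3291 reference genes of that level, and WT library a in 47.0%, against 40.5% of 3297 reference genes. Under TMM scaling these shares were 48.9% against 31.5% in *Csalc* library a and 40.2% against 32.7% in WT library a. Summed over those 266, *Csalc* library a held 37.3% of the *Csalc* normalized counts and WT library a 36.6% of those of WT, against 32.8% and 34.1% in the reference genes of the same level. Library a is, by the naming used here, the one with the largest size factor of its group, and the part of depth in this pattern was not tested.

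The uneven libraries bear on several of the ratios. Leaving WT library a out, the median CV of the 272 members was 8.62%, against 7.80% in the reference genes, and 12 members exceeded 30% (4.41%, against 2.76%), so the count of 21 moved by more than 1.5 times with this library. Under TMM scaling 14 members exceeded 30% (5.15%, against 3.19%), a smaller contrast than with the deposited size factors. Without WT library b there were 28 such members (10.3%, against 4.45%) and without WT library c 19 (6.99%, against 5.01%). Of the 10 highest ratios, Novel00478, Novel00565 and Novel00495 had a WT CV over 30% with WT library a as the highest. Their *Csalc* means of 1994, 236 and 414 compare with 994, 265 and 392 in that library, so that the *Csalc* mean was above it in Novel00478 and Novel00495 and below it in Novel00565.

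The minimum of 100 cut through a dense part of the distribution. Just inside it were Novel00016, Novel00181 and Novel00364, with overall means of 101, 102 and 102. Just outside were Novel00374, Novel00105 and Novel00600, with 99.9, 99.6 and 99.4. Novel00374 had means of 126 in *Csalc* and 73.8 in WT, with a log2 ratio of 0.77, and Novel00105 had 120 in *Csalc* and 79.1 in WT, with a log2 ratio of 0.60, which would have put both among the highest ratios. Among the 266 unannotated transcripts from 10 to 100, 8 were at least 2-fold higher in *Csalc* (3.01%) and 9 at least 2-fold lower (3.38%), against 1.76% and 2.06% of 3297 reference genes of that level.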

How the data were processed

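Ovaries of 3 *Csalc* and 3 WT replicates were sequenced with paired-end reads, mapped by the authors to the Chinese Long V2 cucumber genome and counted per gene. The submitters' processing notes list STAR and DESeq2 without versions. How the unannotated transcripts were assembled is not given in the sources used here. The authors deposited 1 table, whose values are here treated as a signal, the mean normalized count of each group (a column headed spt2, taken as *Csalc*, and one headed WT). Its further columns hold the authors' own fold change, p-value, adjusted p-value and call, and were not used. No column of single libraries was left out (0 unmatched columns). Replicates were called biological by the study.

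Members and lists were chosen with earlier results of these data known. Named transcripts were the 10 highest by level, the 10 highest and 10 lowest by ratio, the 5 with a log2 ratio nearest 0, the 5 highest and 5 lowest by WT CV, the 3 on either side of the minimum and any called by edgeR. The ratio is the log2 of the *Csalc* mean over the WT mean, without a pseudocount. Reference genes were compared in 5 level bins, divided at 200, 500, 1000 and 5000.

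Group means have 10 significant digits. The step of each library was taken from the lowest means and refined by least squares, and every combination of whole reads within 0.55 of the last digit was listed for means under 1000, and for *Csalc* means under 2000 in members. All means searched matched whole reads. The search and the tests were tested on simulated data. On genes with 1 combination in both groups, edgeR 4.0.16 (R 4.3.3, quasi-likelihood, Benjamini-Hochberg over 6790 genes, library sizes from the size factors) was the test. Its SE was taken as the size of the fold change (log2) over the square root of F. DESeq2 1.42.0, TMM, other filters, the most and least even combinations and leaving out libraries were alternatives. Intervals and floors cover counting error only. Depth per library is known only through the size factors, from 0.782 to 1.07. Calculations used Python 3.11.15.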

Additional observations from a re-analysis of the deposited data

How the results depend on the processing

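The median log2 ratio stayed above 0 under pseudocounts of 1 and 10, centring on the reference genes and minimum means of 50 and 200, but its size varied, from 0.01 at a minimum of 200 to 0.04 when centred. With a minimum mean of 50, 3 unannotated transcripts were at least 2-fold higher and 2 at least 2-fold lower, and the interquartile range was 0.26; at 1.5-fold, 5 were higher and 3 lower. Outside the central 90% of reference genes lay 42 members (11.4%), against 10.03% of the reference genes. The median WT CV ran from 8.62% to 11.3% when 1 WT library was left out, and the SD of log2(normalized count + 1) had a median of 0.19, against 0.15 in reference genes. Among alternatives added after seeing the data, 65 members had a WT CV over 20% (23.9%, against 12.6% of reference genes) and 5 over 50% (1.84%, against 0.333%). The number over 30% ran from 12 to 28 without 1 WT library, and under TMM scaling it was 14 (5.15%, against 3.19%), where the deposited size factors gave 7.72% against 3.03%. No member was called by edgeR or DESeq2 under any alternative, including leaving out each library, where the count stayed at 0. No paired analysis was possible because the recovered libraries carry no replicate number. Nearly equal size factors limit the *Csalc* side, where single libraries are known for 67 of 369 members, and means of 1000 or more have no error in either group.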
